A study of Homo sapiens with 6 samples.

Results

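The BCL2 family decides whether the outer membrane of mitochondria is opened, the step that commits a cell to the intrinsic pathway of apoptosis. Pro-survival proteins of the family hold the effectors BAX and BAK1 in check, and BH3-only proteins release or activate these effectors when cells are stressed. Once the membrane is open, cytochrome c leaves the mitochondria and caspases are activated. Here 10 members were followed in RNA sequencing counts of SCC-9 cells, chosen by their gene symbols as the best-known regulators of the family, and all 10 were among the 25349 genes of the count table. By role they are 3 pro-survival genes (BCL2, BCL2L1 and MCL1), 2 effectors (BAX and BAK1) and 5 BH3-only genes (BBC3, PMAIP1, BCL2L11, BID and BIK).

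SCC-9 is an established line of human tongue squamous cell carcinoma. It was grown with hydrocortisone, and both groups received siRNA at 10 nM by lipofection on day 0 and again on day 2. Cells were passed on day 2, and RNA was purified after the second transfection. In the siE7 group the siRNA was directed against exon 7 of MKI67, the gene of the proliferation marker Ki67, and in the siNC group it was nonspecific. The authors list several siRNAs against exon 7, and which of them was used for these libraries is not stated. Each group held 3 libraries of the same line. Nothing states that they came from separate cultures, so the p-values measure the spread between these libraries. In RNA of a whole culture, a change in the share of cells with a transcript and a change of its amount per cell cannot be told apart.

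The libraries held between 25608192 and 29550264 counts on genes. Levels are given as CPM, counts scaled to a common library size and by TMM for library composition. The targeted gene MKI67 was at 1072, 1029 and 1077 CPM with siNC and at 112, 125 and 108 CPM with siE7. All 8 squamous epithelial markers (KRT5, KRT14, KRT6A, KRT17, TP63, CDH1, EPCAM and SFN) were detected in each library, at a summed level of 23290 to 24810 CPM with siNC and 21330 to 27810 CPM with siE7, with 1 called higher and 5 lower. Over all tested genes 18.0% were called higher and 16.0% lower, by the rule given below. The part of these markers in the results below was not tested. Of 12 markers of fibroblasts, endothelium and leukocytes, 9 were among the genes of the count table. They summed to between 19.0 and 27.4 CPM, mostly from COL1A1. The leukocyte genes PTPRC, CD3E and LYZ had no row in the count table. The siE7 replicate 1 library stood apart from the other siE7 libraries. Its root mean square log2 difference from them was 0.585 and 0.587 over the tested genes, against 0.341 between siE7 replicates 2 and 3 and 0.390 to 0.404 among the siNC libraries. Results that move without it are given both ways.

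With siE7, transcripts of the stress-induced BH3-only genes BBC3 (PUMA) and PMAIP1 (NOXA) rose, while those of the pro-survival gene BCL2L1 (BCL-XL), the effector BAK1 and the BH3-only gene BID fell. BCL2L11 (BIM), a further BH3-only gene, was called higher just inside the threshold, a call lost in 9 of 14 alternative settings, DESeq2 among them. BBC3 reached 2.46 times and PMAIP1 2.00 times its siNC level. The falls were smaller, to between 0.613 and 0.668 of the siNC level. MCL1, BAX and BIK did not pass the test, and BCL2 was barely transcribed in either group. The direction thus differed within the pro-death members, of which 3 were called higher, with BCL2L11 as the uncertain one, and 2 lower.

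Of the 9 members with enough reads for the test, 6 were called at an adjusted p-value under 0.05 in the quasi-likelihood test of edgeR, adjusted by Benjamini-Hochberg over 14661 genes, with 3 higher and 3 lower in siE7 (SE is the standard error of a log2 fold change). Of all tested genes 34.0% were called by this rule, 18.0% higher and 16.0% lower. The lowest count of any of these 9 members in any library was 74, so none of them passed the filter through 1 group alone. To count as a differentially expressed gene (DEG), a called gene also had to change by more than 1 on the log2 scale. BBC3 and PMAIP1 were DEGs, both higher, and no member was a lower DEG. Of all tested genes 12.2% were DEGs, 7.38% higher and 4.84% lower. PMAIP1 passed this limit only narrowly, at 1.003, and was under it with DESeq2 (0.939). The libraries of the groups did not overlap for the 6 called members, 3 higher and 3 lower, and for 47.6% of all tested genes, 24.9% higher and 22.7% lower. The median log2 fold change of the 9 members was -0.23, against 0.08 over all tested genes. Without composition scaling the median of all genes was higher by 0.17, and the same 6 members were called. In 8 settings only 5 were called, without BCL2L11: DESeq2, RLE factors, no filter on low counts, a block on the replicate number, and without siNC replicate 2 or 3 or siE7 replicate 2 or 3. Without siNC replicate 1, BIK was called in place of BCL2L11. Without siE7 replicate 1 all 9 members were called, and so were 58.4% of all genes tested in that setting.

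**Figure D1:**
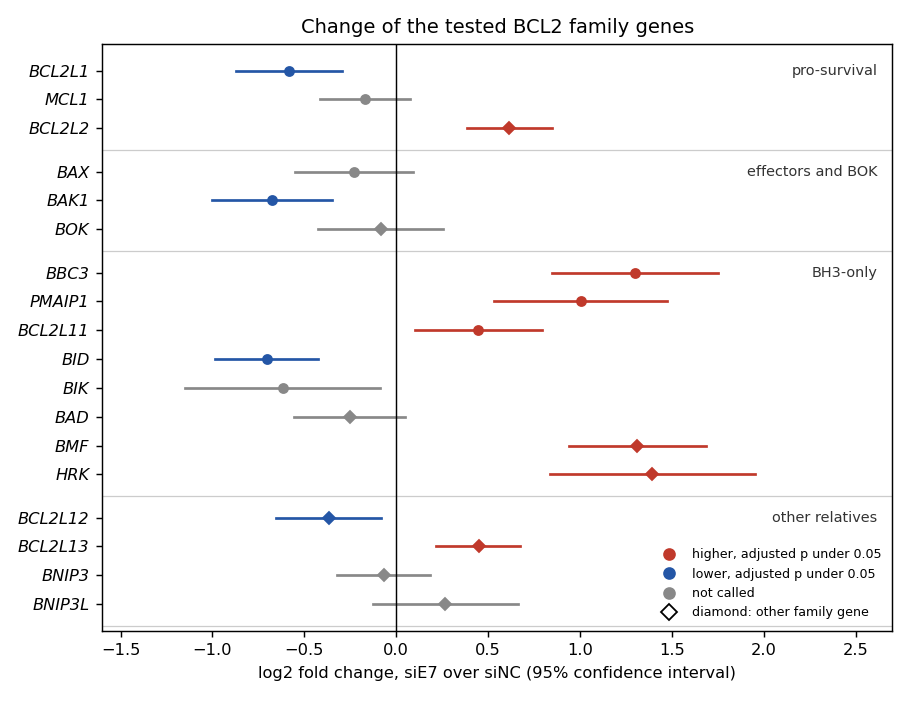
Log2 fold change (siE7 over siNC, x axis) with its 95% confidence interval for the 18 BCL2 family genes that could be tested, grouped by role. Circles are the 10 members without BCL2 and diamonds are other family genes. BBC3, PMAIP1, BMF and HRK lie at or above 1, and BID and BAK1 have the lowest values among the called genes.

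For comparison between genes, levels were divided by the length of the annotated exons (RPKM). In siNC cells BCL2L1 was the most abundant member, at 46.3 ± 0.894 RPKM (SD, n = 3), followed by MCL1 at 42.4 ± 2.24. BAK1 stood at 18.3 ± 1.26, PMAIP1 at 12.95 ± 1.64, BAX at 12.0 ± 0.487 and BID at 10.4 ± 0.198. BIK (4.78 ± 1.24), BBC3 (1.73 ± 0.263) and BCL2L11 (1.28 ± 0.0858) were lower, and BCL2 was near 0 at 0.0156 ± 0.00269 RPKM. In this order only the neighbours PMAIP1 and BAX had overlapping libraries. The most abundant members in siNC cells were thus the pro-survival genes BCL2L1 and MCL1, and the least abundant of the 9 tested members were the BH3-only genes BBC3 and BCL2L11. The middle of the order depended on the length used. Divided by the longest annotated transcript instead, an alternative chosen after seeing the data, BAX came after MCL1 at 22.9 per kilobase, BID (18.5) and BAK1 (18.3) overlapped, PMAIP1 followed at 14.9, and the libraries of BCL2L1 and MCL1 overlapped, as did those of BIK and BBC3.

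With siE7 the order changed. MCL1 came first at 37.7 ± 3.70 RPKM, BCL2L1 second at 30.9 ± 5.53 and PMAIP1 moved up to the third place at 26.0 ± 8.34. The libraries of MCL1 and BCL2L1 overlapped, and so did those of BCL2L1 and PMAIP1. BAK1 (11.5 ± 2.11) and BAX (10.2 ± 1.84) also overlapped, and below them came BID at 6.40 ± 0.842. BBC3 rose past BIK in the order, at 4.25 ± 0.941 against 3.12 ± 0.463 RPKM, with libraries that overlapped. By the longest transcript BAX (19.5) also overlapped PMAIP1 (29.9), BAK1 overlapped BID, and BBC3 lay above BIK without overlap. The spread of the siE7 libraries was wider than that of the siNC libraries for most members.

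**Figure D2:**
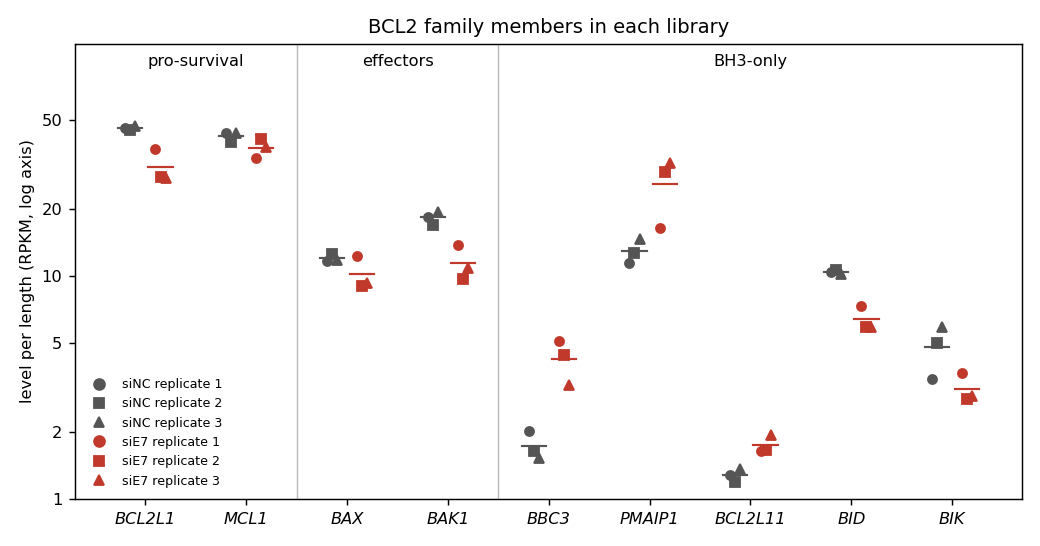
Level per length (RPKM, log axis) of 9 members in each of the 6 libraries, with siNC in grey, siE7 in red and a line at each group mean. BCL2 is not drawn, since it was at 0 in 1 library. The siE7 circles (replicate 1) lie nearer to siNC than the other siE7 libraries for BCL2L1, BAK1, PMAIP1 and BID, and farther from siNC for BBC3.

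BBC3 encodes PUMA, a BH3-only protein that binds all pro-survival members and is induced by several stress pathways. Its level was 6.44, 5.20 and 4.85 CPM with siNC and 16.2, 14.1 and 10.3 CPM with siE7. Every siE7 library lay above every siNC library. The log2 fold change was 1.30 (SE 0.206, edgeR adjusted p = 7.2e-04), and over all alternative settings it lay between 1.09 and 1.46 and stayed called. BBC3 (ENSG00000105327.18) is annotated at chr19:47220822-47232766 of GRCh38, minus strand. Its exons share 2.39% of their bases with a microRNA on the same strand and 2.51% with one on the other.

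PMAIP1 encodes NOXA, a small BH3-only protein that binds MCL1 above all and promotes its degradation. Its level was 25.03, 27.7 and 32.2 CPM with siNC and 36.0, 64.1 and 70.2 CPM with siE7. The groups did not overlap, but siE7 replicate 1 lay close to the highest siNC library and far below the other siE7 libraries. The log2 fold change was 1.00 (SE 0.215, edgeR adjusted p = 0.0045). It was 1.18 without siE7 replicate 1 and 0.82 without siE7 replicate 3, and stayed called in all alternatives. In several of them it was below 1, so that PMAIP1 was not a DEG, as with DESeq2 (0.94), RLE factors (0.95) and a replicate block (0.96). PMAIP1 (ENSG00000141682.12) is annotated at chr18:59899996-59904305, plus strand, and no annotated exon of another gene overlaps its own.

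BCL2L11 encodes BIM, which binds all pro-survival members and is known to be repressed by ERK signalling and induced by FOXO factors. Its level was 8.67, 8.05 and 9.20 CPM with siNC and 11.1, 11.2 and 13.02 CPM with siE7. The groups did not overlap. The log2 fold change of 0.45 (SE 0.158) was just inside the threshold (edgeR adjusted p = 0.047), and the call was lost in 9 of 14 alternatives, among them DESeq2 (0.39, adjusted p = 0.10). BCL2L11 (ENSG00000153094.24) is annotated at chr2:111119378-111168444, plus strand. On the other strand 10.8% of its exon bases belong to the long noncoding RNA MIR4435-2HG, which was called lower, with a log2 fold change of -1.20, from 26.8 to 11.7 CPM. Whether strand was used in counting is not given in the sources used here.

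BID links death receptors to mitochondria when caspase 8 cleaves it. Its level was 46.1, 47.0 and 45.3 CPM with siNC and 32.6, 26.1 and 26.2 CPM with siE7, with no overlap between the groups. BID thus had a log2 fold change of -0.71 (SE 0.129, edgeR adjusted p = 0.0018), between -0.88 and -0.54 over the alternatives. BIK, a BH3-only protein of the endoplasmic reticulum, was measured at 3.28, 4.76 and 5.61 CPM with siNC and at 3.48, 2.68 and 2.75 CPM with siE7. The lowest siNC library lay below the highest siE7 library. Its log2 fold change was -0.62, with a 95% confidence interval of -1.15 to -0.09, and it missed the threshold (edgeR adjusted p = 0.069). BIK was called lower without siNC replicate 1 (-0.81, edgeR adjusted p = 0.041) and without siE7 replicate 1 (-0.81, edgeR adjusted p = 0.0022).

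The promoters of the 3 members called higher are printed below, since they moved in the same direction. They come from RefSeq on GRCh38.p14 and hold 250 bases before and 50 after an annotated start, 5′ to 3′ on the strand of the gene. Of the 10 members, 8 had an entry, some with several starts, and MCL1 and BIK had none. Motifs of factors among the transcription regulators listed for the family were searched on both strands and are in capitals. They were the E-box CACGTG, which reads the same on both strands, the FOXO site GTAAACA, the CRE core TGACGT, the ATF4 composite element TGATGNAA, the AP-1 site TGANTCA, the E2F site TTTNNCGC, the STAT site TTCNNNGAA and the NF-kB site. No matches overlapped each other in these promoters.
BBC3, chr19:47232618-47232917, minus strand: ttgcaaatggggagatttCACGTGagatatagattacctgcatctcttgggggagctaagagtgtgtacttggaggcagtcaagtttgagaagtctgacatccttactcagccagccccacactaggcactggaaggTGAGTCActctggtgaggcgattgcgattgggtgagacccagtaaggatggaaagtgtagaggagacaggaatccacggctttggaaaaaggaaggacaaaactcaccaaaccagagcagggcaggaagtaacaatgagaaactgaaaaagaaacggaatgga
PMAIP1, chr18:59899746-59900045, plus strand: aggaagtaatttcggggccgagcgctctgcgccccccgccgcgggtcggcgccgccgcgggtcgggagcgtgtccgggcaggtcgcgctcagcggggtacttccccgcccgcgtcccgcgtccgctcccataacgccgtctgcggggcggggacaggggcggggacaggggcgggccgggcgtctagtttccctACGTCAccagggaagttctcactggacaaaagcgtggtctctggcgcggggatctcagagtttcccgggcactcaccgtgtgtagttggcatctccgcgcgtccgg
BCL2L11, chr2:111120664-111120963, plus strand: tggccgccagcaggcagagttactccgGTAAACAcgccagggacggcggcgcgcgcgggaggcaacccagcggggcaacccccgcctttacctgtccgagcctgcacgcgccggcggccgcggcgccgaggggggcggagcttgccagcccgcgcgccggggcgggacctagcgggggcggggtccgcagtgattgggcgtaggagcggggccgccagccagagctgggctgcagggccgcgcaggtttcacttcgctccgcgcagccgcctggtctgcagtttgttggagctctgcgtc

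The PMAIP1 promoter held a CRE core, read on the other strand, at position -56 from the start, a motif found in 7.98% of the 35116 promoters in the table. The BCL2L11 promoter held a FOXO site at -223, as did 3.42% of all promoters. The BBC3 promoter held an E-box at -232 and an AP-1 site at -113, found in 7.26% and 7.71% of all promoters. No motif was shared by the 3 promoters. Among the other members, BAX had 4 E-boxes, at -138, -93, -45 and -14, the windows of 2 starts of BID, which fell, shared an E-box, and 1 start of BCL2L1, which fell too, had an E2F site at -111. The E-box was thus found in members called in both directions. The ATF4 element, the STAT site and the NF-kB site had no match in the 13 windows of the members. A match is a run of letters in this window and was not tested for binding.

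The effectors BAX and BAK1 form the pores in the mitochondrial outer membrane. BAK1, which resides there in healthy cells, was at 40.9, 37.6 and 43.1 CPM with siNC and at 30.5, 21.5 and 24.1 CPM with siE7. The groups did not overlap, and the log2 fold change was -0.67 (SE 0.149, edgeR adjusted p = 0.0051), called in all alternatives. BAX, which moves from the cytosol to mitochondria on activation, was at 30.2, 32.5 and 30.5 CPM with siNC and at 32.0, 23.3 and 24.2 CPM with siE7. Here siE7 replicate 1 lay among the siNC libraries and the other siE7 libraries lay below them. The log2 fold change of BAX was -0.23, with a 95% confidence interval of -0.55 to 0.09 (edgeR adjusted p = 0.25). Without siE7 replicate 1 it was -0.45 and called (edgeR adjusted p = 3.2e-05).

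BCL2L1 encodes the pro-survival protein BCL-XL and, by splicing, a shorter pro-death form that counts per gene do not separate. Its level was 194, 191 and 198 CPM with siNC and 156, 117 and 115 CPM with siE7. All siE7 values were below all siNC values. The log2 fold change was -0.58 (SE 0.132, edgeR adjusted p = 0.0059), and over the alternatives it lay between -0.80 and -0.42 and stayed called. BCL2L1 (ENSG00000171552.14) is annotated at chr20:31664452-31723989, minus strand. The noncoding RNA ABALON covers 41.3% of its exon bases on the other strand but was counted at only 0.250 CPM with siNC and 0.176 CPM with siE7.

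MCL1, a pro-survival protein with a short life in the cell, was at 273, 248 and 272 CPM with siNC and at 211, 257 and 236 CPM with siE7. The groups overlapped. The log2 fold change of MCL1 was -0.17, with a 95% confidence interval of -0.42 to 0.08 (edgeR adjusted p = 0.27), and was 0.00 without composition scaling, where the sign turned. MCL1 was called lower without siE7 replicate 1 (-0.16, edgeR adjusted p = 0.016).

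BCL2, the founding member of the family, had 5, 4 and 6 counts with siNC and 4, 1 and 0 counts with siE7, and did not pass the filter on low counts. With no filter its log2 fold change was -1.73 (edgeR adjusted p = 0.31) and with DESeq2 it was -1.83 (adjusted p = 0.33). A difference in BCL2 was not detectable at this depth, and 0 counts in siE7 replicate 3 allow up to 0.108 CPM before TMM scaling, taking 3 counts as the limit and counting error only.

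For 7 of the 10 members the siE7 replicate 1 library lay between the siNC mean and the mean of the other siE7 libraries. These were BCL2, BCL2L1, BAK1, PMAIP1, BCL2L11, BID and BIK, with BCL2 on only 4, 1 and 0 counts in the siE7 libraries. The share of all tested genes with this order was not taken. Nothing particular to the family is read from the count. BBC3 was highest in this library, at 16.2 CPM against a mean of 12.2 CPM in the others, MCL1 was lowest in it, and BAX was within the siNC range. The level of MKI67 in it, 112 CPM, was close to the mean of 116 CPM in the other siE7 libraries.

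To contrast pro-death with pro-survival members, log2 ratios of levels per length were taken in each library, with 0.5 counts added. The ratio of BBC3 to BCL2L1 was -4.51, -4.79 and -4.95 with siNC and -2.87, -2.66 and -3.08 with siE7, so that it was 3.68 times higher with siE7. The ratio of PMAIP1 to MCL1, its main partner, was -1.93, -1.65 and -1.57 with siNC and -1.04, -0.50 and -0.24 with siE7, or 2.18 times higher. The ratio of BAX to BCL2L1 rested on a smaller difference. It was -1.98, -1.85 and -2.003 with siNC and -1.59, -1.64 and -1.55 with siE7, which is 1.28 times higher. BAX itself did not rise. Its log2 fold change was -0.23 and not called, and that of BCL2L1 was lower, at -0.583. The ratio of BAX to BCL2 went from a mean of 9.46 ± 0.284 (SD, n = 3) to 11.3 ± 1.42, but it rests on the few counts of BCL2. The difference of 1.82 was 1.05 without siE7 replicate 3, the library with 0 counts of BCL2, and 2.46 without siE7 replicate 1. In each of these 4 pairs the groups did not overlap, and p was 0.10 in a two-sided exact permutation test, and also 0.10 after adjustment over the 4 pairs. This is the smallest p that 3 against 3 libraries allow, so the test could not pass the threshold. The pairs were also chosen with earlier results of these data known. No pair held BCL2L11, which was called higher, or BAK1, BID and BIK. BAK1 and BID had log2 fold changes of -0.675 and -0.705, below those of BCL2L1 (-0.583) and MCL1 (-0.17). The pairs therefore do not stand for all pro-death members. BBC3 was higher and BCL2L1 lower in every siE7 library than in every siNC library, so their ratio had to separate. Taken singly, 47.6% of all tested genes had libraries that did not overlap.

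Summed over members, the pro-survival level was lower in every siE7 library than in every siNC library, while the pro-death levels overlapped. The pro-survival sum was 89.9, 85.3 and 90.9 RPKM with siNC and 71.2, 69.3 and 65.3 RPKM with siE7. The pro-death sum was 58.8, 60.7 and 65.0 RPKM with siNC and 60.4, 62.8 and 66.4 RPKM with siE7, and the groups overlapped. Within it the BH3-only sum was 28.7, 31.2 and 33.7 RPKM with siNC and 34.2, 44.1 and 46.1 RPKM with siE7. PMAIP1 was its largest part, at 11.45, 12.69 and 14.71 RPKM with siNC and 16.47, 29.32 and 32.11 RPKM with siE7. By the longest transcript BID was larger than PMAIP1 with siNC, at 18.5 against 14.9 per kilobase. The effector sum was 30.2, 29.5 and 31.3 RPKM with siNC and 26.2, 18.7 and 20.3 RPKM with siE7. As a ratio of pro-death to pro-survival sums, siNC libraries had 0.654, 0.712 and 0.715, and siE7 libraries had 0.848, 0.907 and 1.02. This difference was found for the 10 members and not for the wider family. With the other listed pro-survival (BCL2L2, BCL2A1 and BCL2L10) and pro-death genes (BOK, BAD, BMF and HRK) added, a sum chosen after seeing the data, the ratio was 1.53, 1.63 and 1.51 with siNC and 1.69, 1.44 and 1.61 with siE7, and the groups overlapped. BAD, at 96.2 RPKM with siNC and 80.7 RPKM with siE7, was the largest part of the pro-death sum, and BCL2L2 went from 20.2 to 31.0 RPKM. These sums carry no test.

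**Figure D3:**
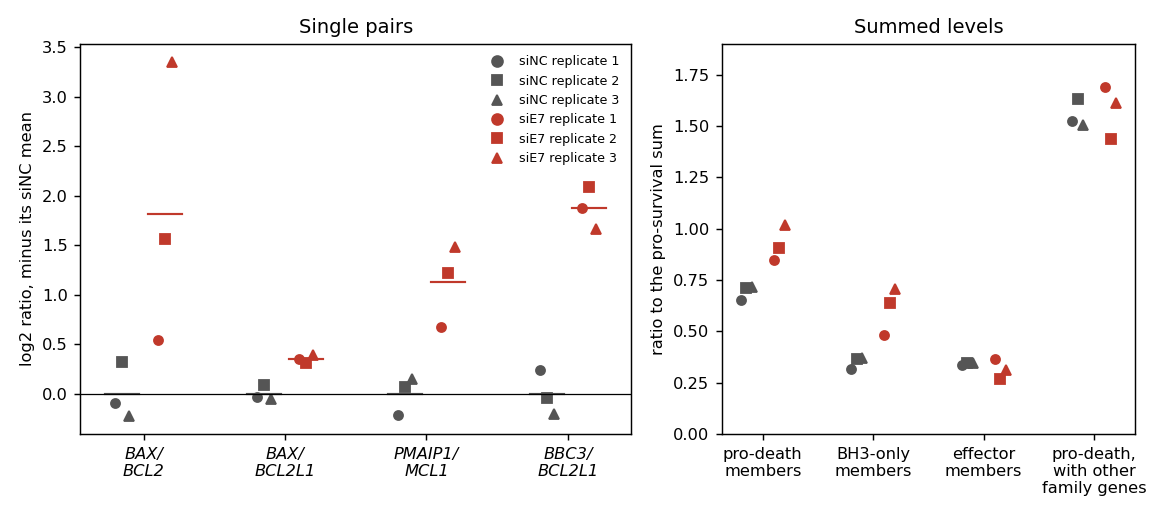
Left, the log2 ratio of a pro-death to a pro-survival member in each library, minus the siNC mean of that ratio, with lines at group means. Right, the summed level per length of all pro-death members, of the BH3-only members and of the effectors, divided by the pro-survival sum, and last the same ratio with other listed family genes in both sums. The siE7 libraries lie above siNC in all 4 pairs and in the first 2 sums, while the groups overlap for the effectors and with the other family genes.

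Of 13 further genes of the family, 9 could be tested, and 4 were called higher and 1 lower. Among the BH3-only genes, BMF, which responds to loss of attachment, rose from 7.90, 8.81 and 6.85 CPM with siNC to 22.8, 18.3 and 17.4 CPM with siE7, and its log2 fold change was 1.31 (SE 0.170, edgeR adjusted p = 2.0e-04). HRK (harakiri) rose from 1.22, 1.00 and 0.985 CPM to 3.10, 2.5 and 2.81 CPM, a log2 fold change of 1.39 (SE 0.256, edgeR adjusted p = 0.0018). Both groups of libraries were apart for both genes, and both were DEGs. BAD, which is controlled by survival kinases, had a log2 fold change of -0.25 (95% confidence interval -0.56 to 0.05, edgeR adjusted p = 0.18), and it was called lower without siE7 replicate 1 (-0.48). Of the 8 BH3-only genes of both lists, 5 were called higher, BCL2L11 among them, 1 lower and 2 not, beside 18.0% higher and 16.0% lower over all tested genes. The genes were chosen with these results known, so nothing particular to the list is read from this.

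The pro-survival gene BCL2L2 (BCL-W) rose, opposite to BCL2L1, from 94.1, 98.3 and 101 CPM with siNC to 158, 151 and 141 CPM with siE7. Its log2 fold change was 0.62 (SE 0.106, edgeR adjusted p = 0.0012). The readthrough gene BCL2L2-PABPN1 shares 16.8% of its exon bases on the same strand and was counted at 146 and 153 CPM, so reads may have been split between them. PPP1R3E overlaps it on the other strand and was at 2.15 and 4.53 CPM. BOK, a relative of the effectors, had a log2 fold change of -0.08 and was not called, and this value turned to 0.08 without composition scaling and was called without siE7 replicate 1 (-0.32). BCL2L13, a mitochondrial relative, rose by 0.45 on the log2 scale, and BCL2L12 had -0.37 (edgeR adjusted p = 0.048), a call lost in 11 of 14 alternatives. IRF3 covers 25.9% of the exon bases of BCL2L12 on the other strand. It was counted at 90.2 CPM with siNC and 96.2 CPM with siE7, against 30.2 and 23.4 CPM for BCL2L12. BCL2L13 lost its call without siNC replicate 1. The mitophagy receptors BNIP3 and BNIP3L had log2 fold changes of -0.07 (0.10 without composition scaling) and 0.27 and were not called. BNIP3L was called higher without siE7 replicate 1 (0.38). The pro-survival gene BCL2A1 had 26 counts in all with siNC and 5 with siE7, and with BCL2L10, BCL2L14 and BCL2L15 it was under the filter. With no filter BCL2A1 was called lower (-2.49, edgeR adjusted p = 0.045), but not with DESeq2 (adjusted p = 0.10).

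Downstream of the family, 3 of 11 tested genes of cytochrome c, the apoptosome and the caspases were called higher and 1 lower, near the 34.0% called over all tested genes. CYCS, cytochrome c itself, was at 228 to 268 CPM with siNC and at 271 to 448 CPM with siE7, with the lowest siE7 value in replicate 1 (log2 fold change 0.63). CASP9, the caspase of the apoptosome, rose by 0.79 and DFFB, the nuclease that cuts DNA in apoptosis, by 0.85 on the log2 scale. CYCS lost its call without siNC replicate 1, siNC replicate 3 or siE7 replicate 2. Of 5 tested inhibitor of apoptosis genes none was called higher and 2 lower, again near that share. BIRC5 (survivin), which also serves in mitosis and is transcribed mostly in dividing cells, fell from 277 to 289 CPM to 93.3 to 115 CPM, a log2 fold change of -1.47 (SE 0.116, edgeR adjusted p = 7.4e-06). BIRC6 had -0.63 and lost its call without composition scaling and without siNC replicate 1. Of their antagonists HTRA2 was not called. DIABLO had only 5 to 19 counts per library and shares 31.5% of its exon bases with other genes on the same strand, so that little can be read from its values.

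In the death receptor pathway 1 of 12 tested genes was called higher and 2 lower, beside 34.0% called over all tested genes. TNFSF10 (TRAIL) rose by 1.23 on the log2 scale, from between 1.86 and 2.75 CPM with siNC to between 3.14 and 7.29 CPM with siE7, the lowest of these in replicate 1. Its receptor TNFRSF10A had a log2 fold change of -0.47, and CFLAR, the inhibitor of caspase 8, had -0.54. TNFSF10 and TNFRSF10A lost their calls without siNC replicate 3. Among 5 genes of MCL1 turnover, only USP9X was called, beside 34.0% called over all tested genes. USP9X, a deubiquitinase that stabilises the MCL1 protein, fell from between 50.6 and 58.5 CPM to between 17.6 and 24.9 CPM, a log2 fold change of -1.27 (SE 0.152, edgeR adjusted p = 1.2e-04).

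Of 12 tested transcription regulators of the family, 5 were called higher and 3 lower, beside 18.0% higher and 16.0% lower over all tested genes. This list was chosen with earlier results of these data known, so nothing particular to it is read from the count. DDIT3 (CHOP), a factor of the integrated stress response known to induce BBC3 and BCL2L11, rose from between 15.2 and 18.8 CPM to between 51.6 and 55.5 CPM, by 1.68 on the log2 scale (SE 0.129, edgeR adjusted p = 6.3e-06). Other genes share 31.6% of the exon bases of DDIT3 on the other strand and 8.03% on the same strand, and the strand setting of counting is not given. ATF4, which acts upstream of DDIT3 and on PMAIP1, rose by 0.99, and JUN by 0.48. JUN lost its call without siNC replicate 2 or 3. TP63, a master regulator of squamous epithelium, was at 154 ± 4.96 CPM (SD, n = 3) with siNC and 122 ± 8.20 CPM with siE7, a log2 fold change of -0.33 (edgeR adjusted p = 0.031) that lost its call in 6 of 14 alternatives. TP73 had 0.02 and was not called. The other called regulators, named after their values were seen, were FOXO3 (0.41) and E2F1 (0.52), higher, and MYC (-0.33) and NFKB1 (-0.41), lower. FOXO3 lost its call in 9, MYC in 7, NFKB1 in 5 and E2F1 in 2 of 14 alternatives.

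**Figure D4:**
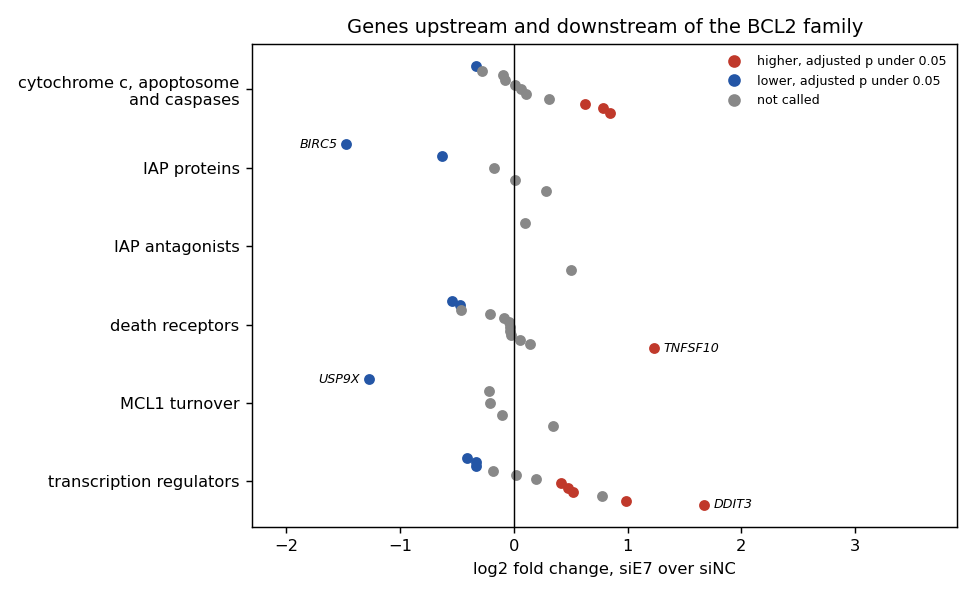
Log2 fold change (siE7 over siNC, x axis) of the tested genes in 6 lists upstream and downstream of the BCL2 family, 1 point per gene, with DEGs named. Red and blue points had an adjusted p under 0.05. TNFSF10 and DDIT3 are the DEGs to the right, and BIRC5 and USP9X those to the left.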

How the data were processed

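Polyadenylated RNA of 6 libraries (siE7 and siNC, 3 each) was sequenced by the authors as stranded paired-end reads on a NovaSeq. The authors deposited raw counts of reads per gene, 1 column per library, and the submitters' processing notes name HISAT2, DESeq2 and GRCh38. The counting tool, its strand setting and the annotation release are not given in the sources used here. Groups were taken from the sample titles.

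Counts were filtered by filterByExpr, scaled by TMM and tested by the robust quasi-likelihood test of edgeR 4.0.16 in R 4.3.3, which left 14661 of 25349 genes. Adjustment (Benjamini-Hochberg) was over all of these. Alternatives were DESeq2 1.42.0, limma 3.58.1 (voom), other scalings and filters, a block on the replicate number, and each library left out. Added after seeing the data were sums over more family genes and the longest transcript as length for the order of levels. Scripts were tested on simulated counts. RPKM used the union of exons in GENCODE 44, matched to gene identifiers without version. Ratios used scipy 1.17.1.

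The members, lists, motifs and pairs were chosen with earlier results of these data known. Named genes are the members, the tested family genes, MKI67, TP63, TP73 and up to 3 called genes of each list, taken in order of p-value. DIABLO, HTRA2, FOXO3, E2F1, MYC, NFKB1, MIR4435-2HG, ABALON, PPP1R3E, IRF3 and BCL2L2-PABPN1 were added after their values were seen. Of the named genes, lists and motifs, 1 gene, 1 list and 1 motif are not reported here.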

Additional observations from a re-analysis of the deposited data

How the results depend on the processing

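The number of genes called was within 1.5 times its value of 4990 in all settings that kept the 6 libraries, and lay between 3153 and 8765 with 1 library left out, the highest without siE7 replicate 1. The number of members called was 5 to 9 over all settings, with BBC3, PMAIP1, BCL2L1, BAK1 and BID called in each. Among the pro-survival members 1 was called, and 1 to 2 with a library left out. Signs turned without composition scaling for MCL1 (0.002, adjusted p = 0.99 by edgeR), BOK (0.076) and BNIP3 (0.103), and for TP73 with DESeq2 (-0.034) and with RLE factors (-0.025). With 1 library left out, signs turned for BOK (-0.318 to 0.043, the highest without siE7 replicate 3) and TP73 (-0.173 to 0.221, below 0 without siNC replicate 1 or 3 or siE7 replicate 1). None of the genes whose sign turned was called with all libraries, and the cause was not tested. With the other listed family genes in the sums, the log2 difference of the pro-death to pro-survival ratio was 0.022 in place of 0.41. The ratio of BAX to BCL2 could not be formed without an added count, since BCL2 was at 0 in 1 library. The replicate numbers are not stated to pair the libraries. Deviations of same-numbered libraries correlated at -0.04, -0.02 and -0.05, but with 3 libraries per group this cannot settle whether they were handled in pairs. With a replicate block the fit called 4947 genes and 5 members, and BCL2L11 (0.44, adjusted p = 0.090 by edgeR) was among the calls lost. Depth limits BCL2 and 4 other family genes, which were under the filter.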
